A study of Mus musculus with 14 samples.

Results

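*Npvf*, *Mir148a*, *Nfe2l3*, *Hnrnpa2b1*, *Cbx3*, *Snx10*, *Skap2* and *Evx1* are the genes that lie around the distal *Hoxa2* enhancers HIRE1 and HIRE2, between those enhancers and the *Hoxa* cluster, or at the far end of the cluster. Their promoter contacts were followed on mouse chromosome 6 by promoter capture Hi-C (PCHi-C), in which DNA ends that were close in the nucleus are ligated, and ligations with a promoter are pulled out with RNA probes. The members were the baits, that is the captured HindIII fragments, that hold an annotated start site of 1 of the 8 genes. They came to 7 of 22171 baits, since *Hnrnpa2b1* and *Cbx3* are transcribed away from each other out of the same fragment. The 7 baits had 395 of the 1345534 distinct pairs in the deposited lists, 262 of them on chromosome 6 and 133 with other chromosomes.

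Cranial neural crest cells (CNCCs) came from 4 E10.5 regions, namely PA2 (the second pharyngeal arch), Md and Mx (the mandibular and maxillary processes) and FNP (the frontonasal process). Later CNCCs came from the pinna, the outer ear to which PA2 gives rise, at E12.5 and E14.5. These wild-type embryos carried Wnt1::Cre;ROSARFP, a crest-specific Cre line with an RFP reporter. Cre is under *Wnt1* control, so the label starts before crest cells migrate, and cells were sorted by RFP. PA2 cells of E10.5 *Hoxa2* EGFP/EGFP knockout embryos were sorted by the EGFP placed in the *Hoxa2* locus, so genotype and sort marker cannot be told apart. Each of the 7 conditions had 2 libraries, described as biologically independent, and embryos were pooled. FNP, Mx and Md lack *Hox* expression and are called *Hox*-negative (6 libraries), and wild-type PA2 and pinna are called *Hoxa2*-expressing (6 libraries). The lists hold contacts of DNA and no expression values, so the cell type could not be checked by markers.

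Each pair carries a CHiCAGO score, which is high where a bait and a fragment were ligated more often than their distance and the noise of the bait and fragment predict. Only pairs with a score of 5 or more were listed, so an unlisted pair is treated as 0, which stands for any score below 5. The libraries held 119370 to 499756 pairs, with the fewest in the 2 knockout libraries (119370 and 128042). Md replicate 1 and E12.5 pinna replicate 2, whose lists are named as merged, had 46.5% and 62.7% of their pairs between chromosomes, against 2.64% to 5.61% in the other 12 libraries. Numbers of read pairs are not in the lists, so the depth behind a score is unknown.

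Enhancers act on promoters that they meet by looping of the chromatin fibre, and contacts mostly stay within domains separated by boundaries. Genes that share a stretch with an enhancer but do not respond to it are often called bystanders. The genes followed here do unlike things. *Npvf* encodes the precursor of RFamide neuropeptides, *Mir148a* a microRNA, *Nfe2l3* a bZIP transcription factor, *Hnrnpa2b1* an RNA-binding protein of the nucleus and *Cbx3* the heterochromatin protein HP1γ. *Snx10* encodes a sorting nexin of endosomes, *Skap2* a cytoplasmic adaptor of Src family kinases, and *Evx1* a homeobox transcription factor next to the 5′ end of the *Hoxa* cluster.

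The sequences below show some of the elements whose contacts are described, and no contact result uses their letters. The mature products of *Mir148a*, which is transcribed from the minus strand, show what the microRNA gene yields. The seed, bases 2 to 8, is in capitals, and 3 of 1679 mature mouse microRNAs of the RefSeq table share that of the 3p arm, namely miR-148a-3p, miR-148b-3p and miR-152-3p.
miR-148a-3p: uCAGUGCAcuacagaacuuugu
miR-148a-5p: aAAGUUCUgagacacuccgacu

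The promoters of *Skap2* and *Evx1*, the members with the most contacts, are shown over 300 bases, from 250 before to 50 after the RefSeq start (GRCm38.p6), with GGGCGG or its reverse complement in capitals. The *Skap2* promoter (chr6:52012500-52012799, minus strand) holds 3 such matches. The *Evx1* promoter (chr6:52313248-52313547, plus strand) holds none. Of 32851 promoters of this length, 35.7% hold a match on either strand.
Skap2: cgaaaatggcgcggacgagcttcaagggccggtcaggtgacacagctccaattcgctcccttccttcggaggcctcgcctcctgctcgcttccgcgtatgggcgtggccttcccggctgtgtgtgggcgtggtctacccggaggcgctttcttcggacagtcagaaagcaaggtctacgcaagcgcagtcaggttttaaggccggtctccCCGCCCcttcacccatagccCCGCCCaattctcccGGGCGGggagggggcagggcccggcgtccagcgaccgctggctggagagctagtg
Evx1: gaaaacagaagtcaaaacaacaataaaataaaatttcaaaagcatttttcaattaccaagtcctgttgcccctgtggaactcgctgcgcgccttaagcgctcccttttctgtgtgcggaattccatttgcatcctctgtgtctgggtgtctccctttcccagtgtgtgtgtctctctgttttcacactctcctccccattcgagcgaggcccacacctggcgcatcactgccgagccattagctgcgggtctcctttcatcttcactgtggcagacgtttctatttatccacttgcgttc

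The *Skap2* window was 66.0% G and C with 28 CpG dinucleotides, and the *Evx1* window 48.7% with 12, against medians of 52.7% and 7 over all promoters of the table. The table held 7 of the 8 members, all but *Mir148a*. The last sequence is the middle 300 bases (chr6:51181834-51182133, plus strand) of a 2435-bp HindIII fragment that was listed with both the *Skap2* and the *Evx1* bait in all 14 libraries. The whole fragment is 34.1% G and C and overlaps no annotated gene.
shared fragment, central 300 bases: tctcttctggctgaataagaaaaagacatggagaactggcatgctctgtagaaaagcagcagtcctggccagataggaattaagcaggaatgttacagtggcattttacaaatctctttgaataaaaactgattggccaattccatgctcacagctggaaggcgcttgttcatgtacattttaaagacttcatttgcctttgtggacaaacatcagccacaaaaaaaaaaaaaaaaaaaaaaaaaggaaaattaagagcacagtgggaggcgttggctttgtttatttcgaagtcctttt

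The 7 baits fell into well-connected and sparsely connected ones. *Skap2* and *Evx1*, the members on either side of the *Hoxa* cluster, had 144 of the 262 chromosome 6 pairs (55.0%). The *Skap2* bait had 14 (E14.5 pinna replicate 1) to 34 listed pairs per library with a median of 28.5, and the *Evx1* bait 16 (FNP replicate 1) to 38 (E14.5 pinna replicate 2) with a median of 25.5. Their means over the 14 libraries, 27.8 and 26.1, were above those of 95.3% and 94.6% of all baits, against 4.43 for the median bait and 38.4 for the *Hoxa2* bait.

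The baits nearer to the enhancers were close to or below the median bait. The *Hnrnpa2b1*/*Cbx3* bait had a mean of 5.71 listed pairs per library (range 2 to 9) and the *Snx10* bait 4.71 (range 2 to 9). *Mir148a* had 2.86 (0 to 8), *Npvf* 2.07 (0 to 5) and *Nfe2l3* 1.93 (1 to 3). Of all baits, 58.9%, 51.8%, 34.0%, 23.7% and 21.7% had a lower mean than these 5, in the order named.

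**Figure D1:**
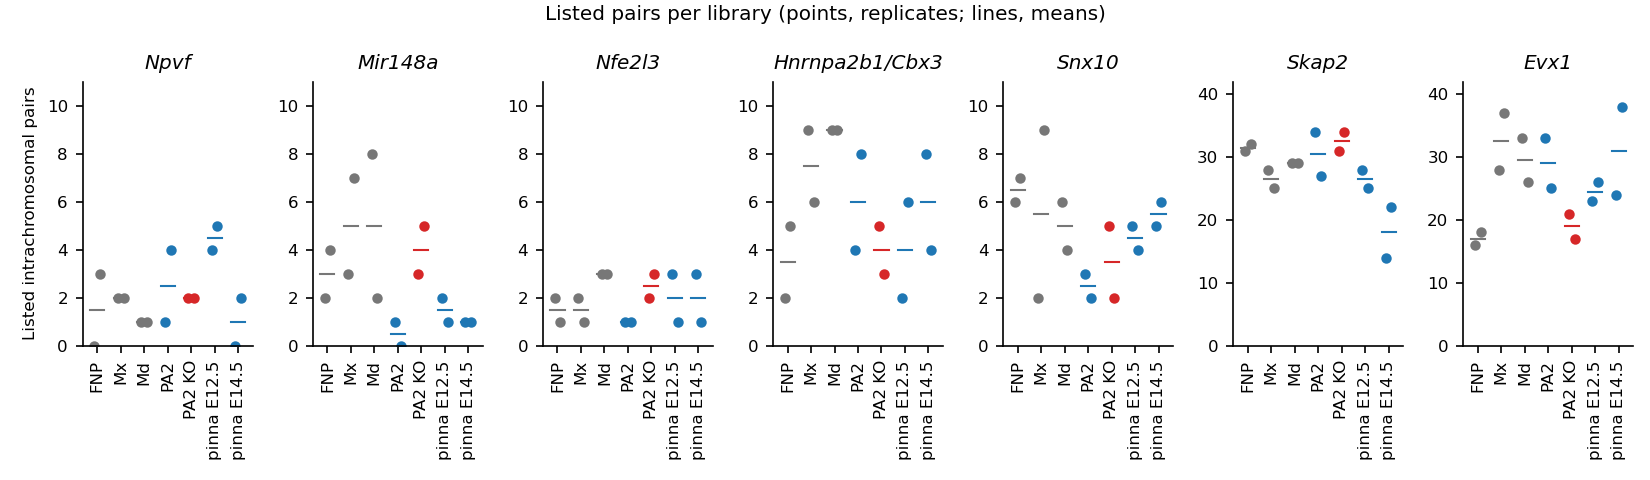
Listed chromosome 6 pairs per library (y axis, number of pairs with a score of 5 or more) for each of the 7 baits over the 7 conditions (x axis), with 1 point per library, a line at the mean of 2 libraries, grey for *Hox*-negative, blue for *Hoxa2*-expressing and red for knockout. *Skap2* and *Evx1*, drawn on a taller axis, lie at 14 to 38 pairs and the other baits at 0 to 9.

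Agreement between the 2 libraries of a condition followed the same split. Summed over the 7 conditions, 131 of 258 *Skap2* pairs listed in either library were listed in both (50.8%), and 113 of 252 for *Evx1* (44.8%). The share was 12 of 68 for *Hnrnpa2b1*/*Cbx3* (17.6%), 10 of 56 for *Snx10* (17.9%), 7 of 33 for *Mir148a* (21.2%), 6 of 21 for *Nfe2l3* (28.6%) and 1 of 28 for *Npvf* (3.57%). Of the 262 pairs on chromosome 6, 123 were listed in a single library (46.9%, against 63.4% of all chromosome-internal pairs of the series) and 8 in all 14 (3.05%, against 1.85%). Of the 133 pairs with other chromosomes, 118 came from Md replicate 1 (38) and E12.5 pinna replicate 2 (80), and none was listed in more than 1 library.

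The baits differed in how far and in which direction they reached. The median gap between bait and fragment, edge to edge, was 212 kb for the distinct *Skap2* pairs, 300.02 kb for *Snx10*, 348 kb for *Nfe2l3*, 376 kb for *Hnrnpa2b1*/*Cbx3*, 499 kb for *Evx1*, 514 kb for *Npvf* and 585 kb for *Mir148a*. Of 26 *Snx10* fragments 21 lay on the centromeric side, towards HIRE1 and HIRE2. In contrast, 25 of 26 *Mir148a* fragments lay on the telomeric side, towards *Hoxa*. For *Npvf*, 18 of 20 fragments lay on the telomeric side. Seen from that bait, HIRE1, HIRE2 and *Hoxa* all lie on the telomeric side. The *Hnrnpa2b1*/*Cbx3* bait was even, with 18 centromeric and 17 telomeric.

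**Figure D2:**
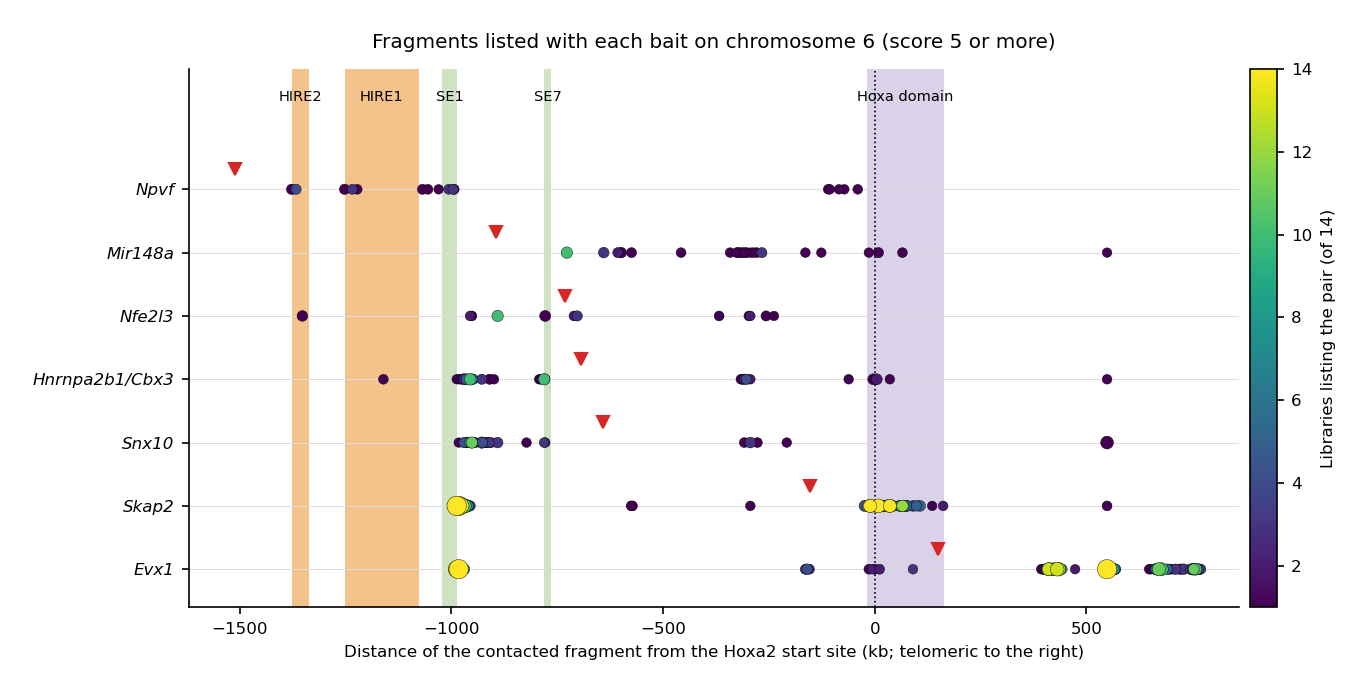
Fragments listed with each bait (rows), placed by the distance of the fragment midpoint from the *Hoxa2* start site in kb (x axis, telomeric to the right, dotted line at the start site). Dots are coloured by the number of the 14 libraries that list the pair and grow with the highest score, red triangles mark the start site of the bait's gene, and shading marks HIRE1, HIRE2, the super-enhancers SE1 and SE7, and the Hoxa domain. Yellow dots, listed in 14 libraries, occur in the *Skap2* and *Evx1* rows, and 28 pairs that lie outside the axis, 26 of them from a single library, are not drawn.

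*Npvf* lies at the centromeric end, at -1510 kb from the *Hoxa2* start site, and its 421-bp bait is the smallest of the 7. None of its 20 chromosome 6 fragments was listed in more than 4 libraries, and the highest score was 6.95. Its most often listed fragment, in HIRE2 (50795599 to 50799925, 141 kb away), scored 5.1 in Mx replicate 2, 5.73 in PA2 replicate 2, 5.08 in knockout replicate 2 and 6.46 in E12.5 pinna replicate 2, never in both libraries of a condition. Beside HIRE1 and HIRE2, it was listed with 3 fragments of SE1, which of the study's super-enhancers SE1 to SE5 (stretches dense in the active mark H3K27ac) lies nearest to *Hoxa2*. The SE1 fragment at 51157676 to 51158859, 503 kb away, scored 5.8 and 5.45 in the knockout and 5.77 in E12.5 pinna replicate 1. Those knockout values were the only *Npvf* pair that both libraries of a condition listed. The SE1 fragment at 51167210 to 51170010 scored 6.45 in FNP replicate 2, 5.59 in Mx replicate 1 and 6.06 in E12.5 pinna replicate 1, so it was listed in *Hox*-negative and *Hoxa2*-expressing libraries alike. The third SE1 fragment was listed once, in E14.5 pinna replicate 2 (6.31).

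*Mir148a* and *Nfe2l3*, 149 kb apart between their baits, were each other's most often listed contact. The pair scored 5.34 and 5.5 in FNP, 6.09 and 5.66 in Mx, 7.05 and 5.8 in Md, 9.25 and 8.4 in knockout PA2, and 5.92 and 6.62 in E12.5 pinna. It was not listed in any of the 4 wild-type PA2 and E14.5 pinna libraries. It thus appeared in 10 of 14 libraries, as both or neither library of every condition. With *Mir148a*–*Snx10*, it was 1 of 2 pairs listed between member baits, of 21 possible.

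*Mir148a*–*Snx10* (243 kb) scored 7.21 and 7.39 in the knockout and 5.15 in E14.5 pinna replicate 2, and was not listed elsewhere. A fragment in an intron of *Skap2* (51897811 to 51898665, 618 kb from *Mir148a*) scored 6.47 and 5.75 in the knockout and 5.63 in Md replicate 2. Both had too few libraries to enter the tests of pairs. Of its 26 chromosome 6 fragments, 22 were listed in a single library.

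*Nfe2l3* had 13 chromosome 6 fragments. After *Mir148a*, the most often listed was a 401-bp fragment in *Hnrnpa2b1* (51461956 to 51462356, 15.4 kb away), with 6.07 in E12.5 pinna replicate 1 and 6.11 and 6.49 in E14.5 pinna. It was not listed in any E10.5 library. A neighbouring fragment 3.03 kb away scored 5.3 in knockout replicate 2 and 5.65 in E12.5 pinna replicate 1.

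The *Hnrnpa2b1*/*Cbx3* and *Snx10* baits met the same 2 fragments between SE1 and *Mir148a*, neither of which overlaps an annotated gene. The fragment at 51205165 to 51212855 was listed with *Hnrnpa2b1*/*Cbx3* in 10 libraries, at 5.17 to 9.77 in all 6 *Hox*-negative ones, 8 in PA2 replicate 2, 6.59 in E12.5 pinna replicate 2, and 6.61 and 7.45 in E14.5 pinna. With *Snx10* it was listed in 9 libraries, at 6.76 and 5.59 in PA2, 6.21 and 6.15 in the second replicates of E12.5 and E14.5 pinna, and 5.87 to 7.14 in 5 *Hox*-negative libraries. Neither bait was listed with it in the knockout, and for *Snx10* the difference from wild-type PA2 was -2.52 on the asinh scale (adjusted p 0.295 by limma).

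Next to it, a 573-bp fragment (51212856 to 51213428) was listed with *Snx10* in 11 libraries (highest score 8.95) and with *Hnrnpa2b1*/*Cbx3* in 8 (highest 7.56). A fragment of SE7 (51383544 to 51384243), a super-enhancer between *Mir148a* and *Nfe2l3* that is numbered here by its order towards *Hoxa2*, was listed with *Hnrnpa2b1*/*Cbx3* in 10 libraries at 5.25 to 9.43. The same fragment was listed with *Snx10* in 3. It overlaps introns of the noncoding RNA genes *Gm26677* and *Gm6559*. A fragment that *Snx10* met further on (51235454 to 51237510) scored 9 and 6.39 in FNP, 5.27 in Mx replicate 2 and 6.23 in Md replicate 1, and was not listed in the other 10 libraries, so the groups overlapped at 0.

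Seen from the fragments, 40 of 204 chromosome 6 fragments were listed with 2 or more member baits, 13 with 3 or more, 5 with 4 or more and 2 with 5. The latter were a fragment with an exon of *Skap2* (51868074 to 51873751) and the bait of *Tax1bp1*. The *Skap2* fragment was listed in 1 to 3 libraries per bait, most often with *Snx10*, which scored 5.89 in FNP replicate 2, 6.25 in Md replicate 1 and 7.72 in E12.5 pinna replicate 2.

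*Skap2* and *Evx1* were both listed with 4 adjacent fragments at the telomeric edge of SE1 (51173834 to 51199257, 25424 bp), the second of which gave each bait its highest score. These fragments were chosen after their values were seen, as those listed with both baits in at least 7 libraries, and the first of them overlaps SE1 while the rest reach 21.1 kb beyond it. The stretch holds no annotated gene. It lies 812 kb from the *Skap2* bait, 1107 kb from the *Evx1* bait and 966 kb from the *Hoxa2* start site. The *Hoxa2* bait was also listed with these fragments, in 14, 14, 14 and 11 libraries in order of position.

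For *Skap2*, the second fragment (51180767 to 51183201, part of which is printed above) scored 18.7 to 28.4 in the *Hox*-negative libraries (median 26.6), 17.5 to 35.3 in the *Hoxa2*-expressing ones (median 33.0), and 10.8 and 15.7 in the knockout. The wild-type PA2 libraries scored 35.3 and 33.7, above all 6 *Hox*-negative ones, and the E14.5 pinna libraries 19.3 and 17.5. The knockout libraries were below all 12 wild-type libraries. For *Evx1*, the same fragment scored 23.6 to 33.6 in *Hox*-negative libraries (median 27.0), 34.7 and 34.0 in PA2, 32.9 and 21.6 in E12.5 pinna, 6.30 and 14.2 in E14.5 pinna, and 14.1 and 15.9 in the knockout. Here the E14.5 pinna libraries reached as low as or lower than the knockout.

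The first fragment (51173834 to 51180766) scored 10.8 to 18.1 with *Skap2* in *Hox*-negative libraries, 26.8 and 15.6 in PA2, 31.9 and 35.3 in E12.5 pinna, 11.3 and 18.2 in E14.5 pinna, and 11.2 and 8.61 in the knockout. With *Evx1* it scored 6.96 to 16.7 in *Hox*-negative libraries, 23.9 and 20.8 in PA2, 25.7 and 22.5 in E12.5 pinna, 9.45 and 9.61 in E14.5 pinna, and 7.23 and unlisted in the knockout. For both baits the E12.5 pinna libraries were above all *Hox*-negative ones, and the knockout libraries were below both wild-type PA2 libraries.

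The third fragment (51183202 to 51190454) was listed with *Skap2* in all 14 libraries, at 10.48 to 23.2, with 17.4 and 18.5 in PA2 and 10.9 and 13.6 in the knockout. *Evx1* scored 16.3 and 17.7 with it in PA2, and neither knockout library listed it. The fourth (51190455 to 51199257) was listed with *Skap2* in 10 libraries and with *Evx1* in 8, including both knockout libraries for each bait (11.1 and 12.7 for *Skap2*, 5.09 and 7.25 for *Evx1*). With each bait, the knockout libraries were below both PA2 libraries in 3 of the 4 fragments, all but that at 51190455. Among all pairs tested between knockout and PA2, 35.8% had groups that did not overlap, whichever was higher. The *Hoxa2* bait was also lower in the knockout at 51173834 (30.91 and 24.3, against 65.81 and 80.57 in PA2). The same held at 51180767 (18.33 and 18.87, against 27.55 and 23.02). At 51183202 and 51190455 its knockout and PA2 scores overlapped. In the knockout allele EGFP replaces *Hoxa2*, and whether this changed the capture of the *Hoxa2* bait was not tested. The *Npvf*, *Mir148a* and *Nfe2l3* baits were listed with none of the 4 fragments in any library, *Snx10* with the second in 1 and the fourth in 4, and *Hnrnpa2b1*/*Cbx3* with each in 1 or 2.

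**Figure D3:**
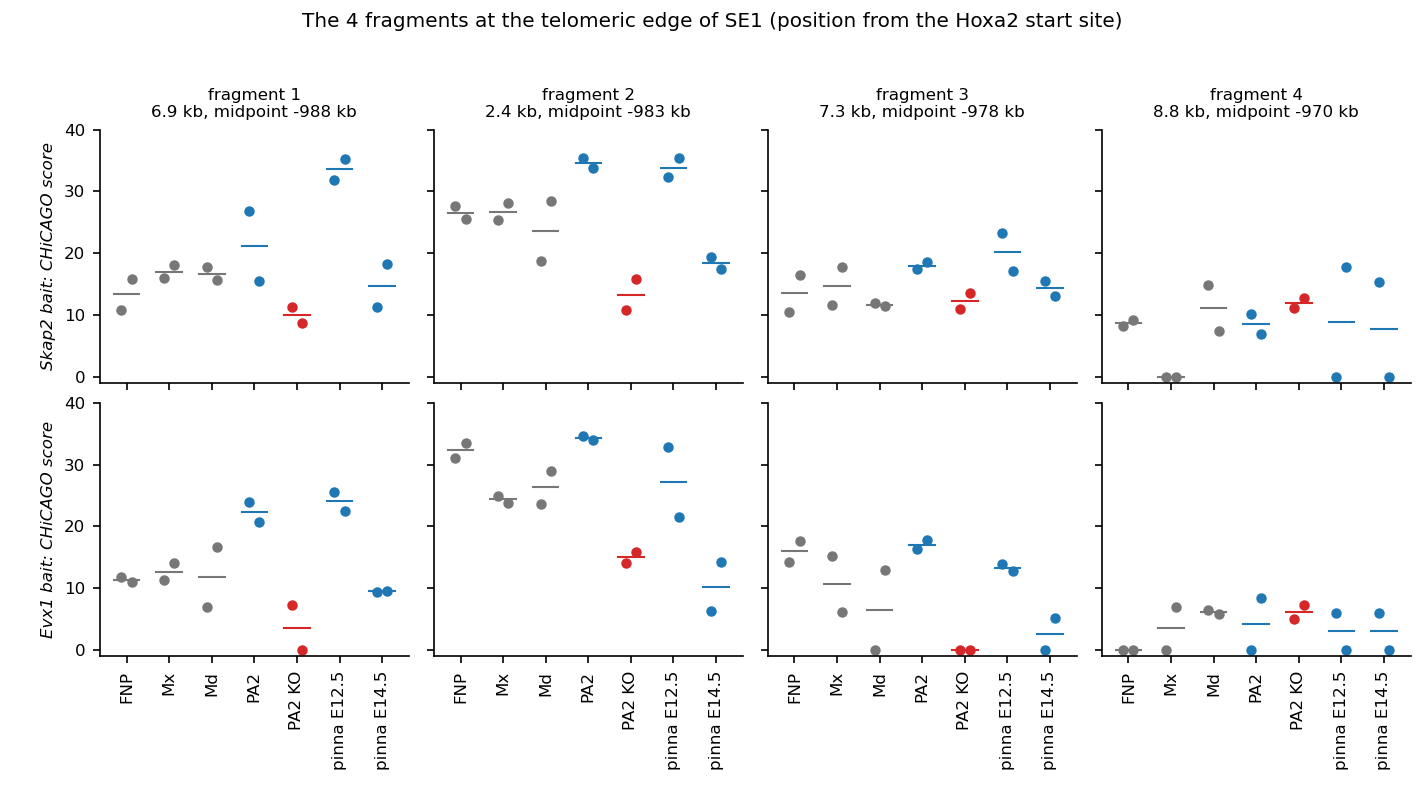
CHiCAGO score (y axis) of the *Skap2* bait (top) and the *Evx1* bait (bottom) with each of 4 adjacent fragments at the telomeric edge of SE1, by condition (x axis). Each point is a library, a line is the mean of 2 libraries, 0 is an unlisted pair, and colours are grey for *Hox*-negative, blue for *Hoxa2*-expressing and red for knockout. In fragment 2 the PA2 points sit near 34 and the knockout points between 10.8 and 15.9 for both baits.

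The *Skap2* bait had its largest set of contacts in the Hoxa domain, the interval of the *Hoxa* cluster and *Evx1*. It was listed with 43 of the 61 fragments there, in 7 (E14.5 pinna replicate 1) to 26 fragments per library (median 21), and 3 of them were listed in all 14 libraries. The highest score was with the bait of the gene model *Gm15050*, at 8.04 to 15.3 in *Hox*-negative, 8.91 to 14.72 in *Hoxa2*-expressing, and 12.54 and 15.1 in knockout libraries. These ranges overlapped. The *Skap2* bait was listed with 11 baits of the domain, among them those of the noncoding RNA gene *Hotairm1* (13 libraries), *Hoxa9* and *Mir196b* (12), *Hoxa4* (11), *Hoxa5* (10), *Hoxa2* (5) and *Hoxa13* (5).

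*Skap2* was listed with the *Hoxa2* bait, 148 kb away, in *Hox*-negative libraries only. The pair scored 5.32 in FNP replicate 2, 7.13 and 6.90 in Mx, and 7.78 and 5.22 in Md, and was not listed in FNP replicate 1 or in any of the 8 *Hoxa2*-expressing and knockout libraries. The groups overlapped through FNP replicate 1, and all listed scores were close to 5, below which a pair is not listed. For the knockout libraries, the EGFP allele at *Hoxa2* is a further limit, as said above. On asinh of the score the difference between *Hoxa2*-expressing and *Hox*-negative libraries was -2.13 (SE 0.659), and limma's test gave an adjusted p of 0.377 (Benjamini-Hochberg over all pairs). A nearby fragment with an exon of *Hoxa2* (52162174 to 52162655) was listed with *Skap2* in all 6 *Hox*-negative libraries, at 6.55 to 9.1. It was also listed in 2 *Hoxa2*-expressing libraries (5.27 and 7.91) and 1 knockout library (5.56).

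At E14.5 the *Skap2* fragments listed in the domain stopped at *Hoxa5*. Beyond *Hoxa5*, 17 fragments were listed with *Skap2*, in 4 to 11 per library at E10.5 and E12.5, with 11 and 10 in the knockout, and in 0 and 0 in the E14.5 pinna libraries. From the *Hoxa2* start to *Hoxa5*, the E14.5 libraries had 5 and 8 fragments against 7 to 13 in the others. On the centromeric side of the *Hoxa2* start they had 2 and 6 against 3 to 7. This split by position was chosen after the values were seen, and no test compared the parts. E14.5 replicate 1 also had the fewest listed fragments in the other 2 parts, and the median listed score beyond *Hoxa5*, 6.27, was the lowest of the 3 parts. With the *Hoxa9*/*Mir196b* bait, *Skap2* scored 6.26 and 9.29 in PA2, 9.22 and 8.43 in E12.5 pinna, and was unlisted at E14.5. The pinna mean was lower than PA2 by 1.29 on the asinh scale (SE 0.278), with an adjusted p of 0.0571 by limma, which misses the threshold of 0.05.

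**Figure D4:**
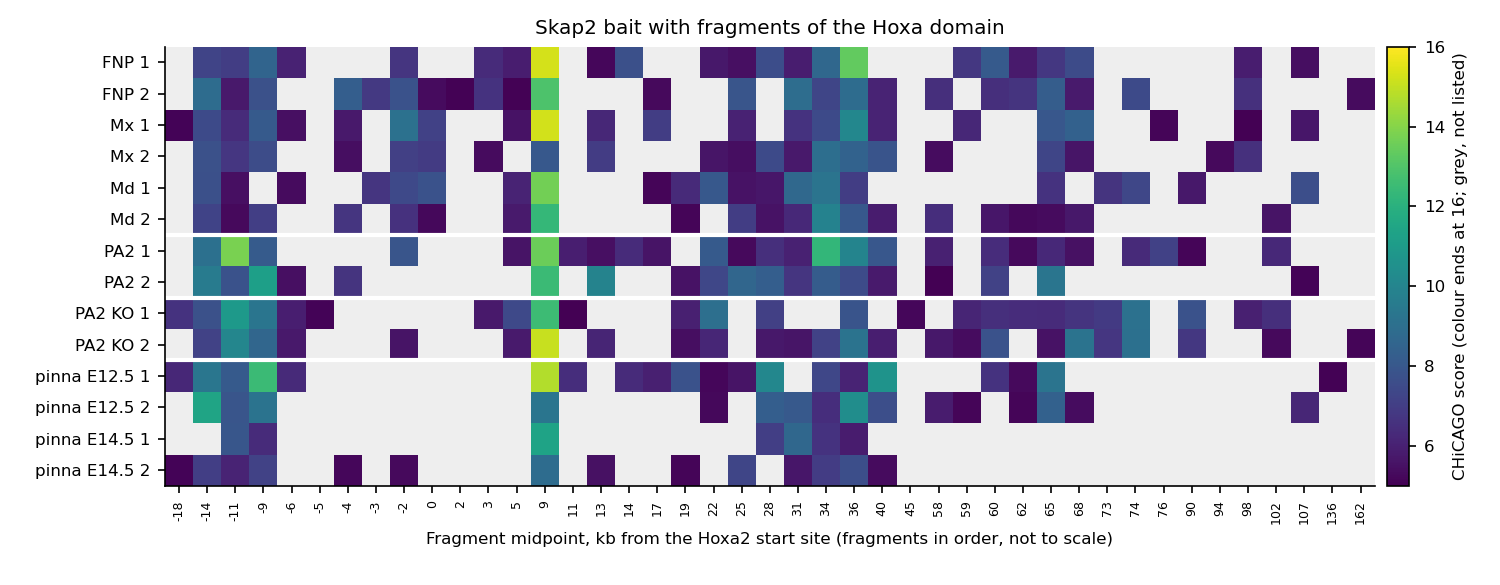
CHiCAGO score (colour, grey where not listed) of the *Skap2* bait with each listed fragment of the Hoxa domain (columns, labelled by midpoint in kb from the *Hoxa2* start site, in order and not to scale) in each library (rows). The column at 9 kb, the *Gm15050* bait, is filled in all 14 libraries, and the 2 E14.5 pinna rows have no listed fragment beyond 40 kb.

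*Evx1*, inside the Hoxa domain itself, had few listed pairs with the rest of it, that is few that exceeded what distance predicts. It was listed with 5 fragments there, in 9 listings over all libraries, against 286 listings for *Skap2*. The scores did not exceed 5.95. *Evx1* reached instead to the telomeric side, where 55 fragments 242 to 619 kb away gave 285 of its 365 listings.

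These telomeric fragments fell into 3 stretches, named here by their genes after the values were seen. In *Hibadh*, which encodes a mitochondrial enzyme of valine breakdown, 20 fragments were listed, in 4 to 16 per library. In *Tax1bp1*, which encodes an autophagy adaptor, there were 9 fragments, in 2 to 7 per library. In *Jazf1*, which encodes a zinc finger cofactor, there were 26 fragments, in 3 to 12 per library. The highest scores were 14.97, 34.6 and 13.97 in that order.

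The bait of *Tax1bp1* (52711520 to 52715925, 396 kb from *Evx1*) was listed in all 14 libraries. It scored 15.1 to 22.8 in *Hox*-negative libraries (mean 19.4 ± 3.47, SD, n = 6), 16.6 and 19.8 in PA2, 8.52 and 18.67 in E12.5 pinna, 10.73 and 24.8 in E14.5 pinna, and 34.6 and 26.5 in the knockout. The knockout libraries were the highest of all 14. Against wild-type PA2 the difference was 0.51 on the asinh scale (SE 0.302), and limma's adjusted p was 0.525. The replicates of each pinna stage differed from each other by more than PA2 and knockout replicates did.

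Among the *Jazf1* fragments, that at 52833840 to 52838553 scored 7.13 to 13.97 in *Hox*-negative libraries, 6.1 and 11.76 in PA2, 12.3 and 5.91 in E12.5 pinna, and 11.6 in E14.5 pinna replicate 2, and was unlisted in both knockout libraries and E14.5 pinna replicate 1. Among the *Hibadh* fragments, that at 52583836 to 52586516 scored 5.58 and 5.34 in PA2 and 6.77 to 9.57 in the 4 pinna libraries, and was unlisted in the knockout. It was also unlisted in 3 of the 6 *Hox*-negative libraries, FNP replicate 2 and both of Md, and scored 5.2, 6.32 and 6.22 in the others. Neither difference between knockout and PA2 passed (limma's adjusted p 0.144 and 0.159). Without 1 library the former ran from 0.00357 (without E14.5 pinna replicate 1) to 0.398, and the latter from 0.0179 (without FNP replicate 2) to 0.418.

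**Figure D5:**
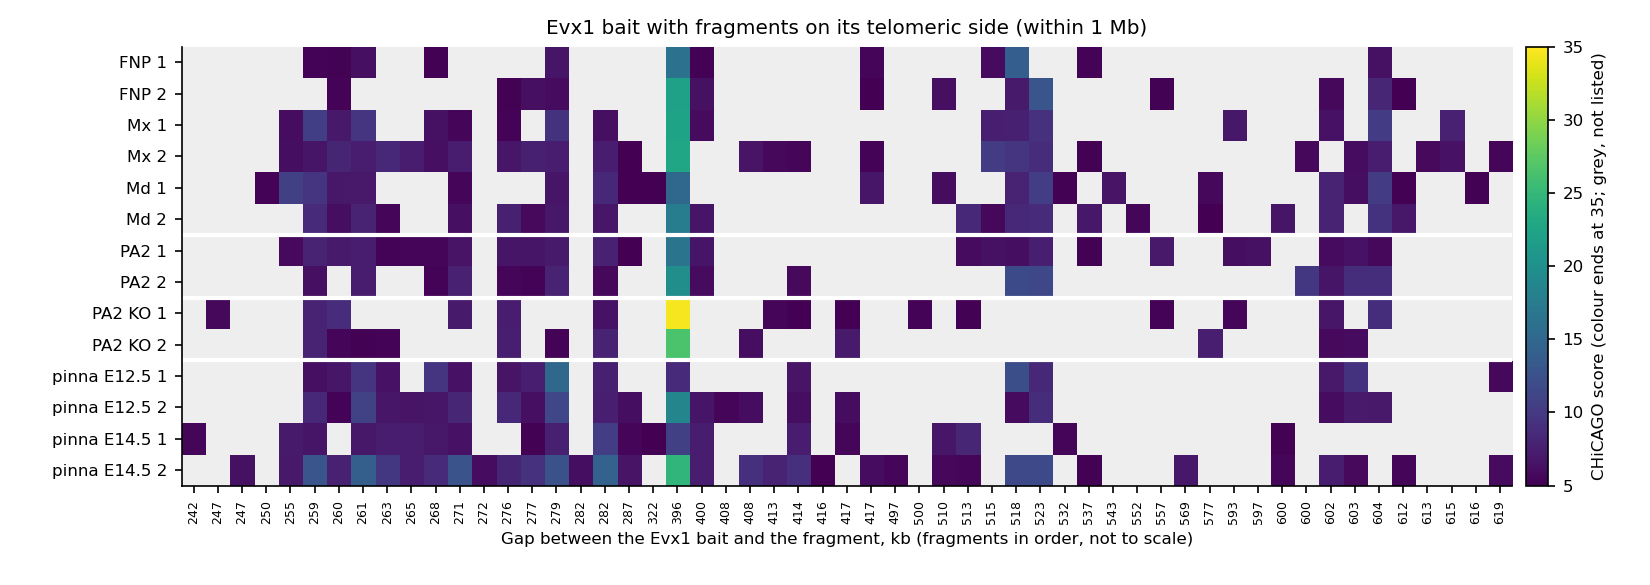
CHiCAGO score (colour, grey where not listed) of the *Evx1* bait with each fragment on its telomeric side (columns, labelled by the gap to the bait in kb, in order and not to scale) in each library (rows). The column at 396 kb, the *Tax1bp1* bait, is listed in all 14 libraries and is brightest in the 2 knockout rows, at 34.6 and 26.5.

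*Evx1* also had listed pairs far beyond its neighbourhood. Its pair with the bait of *Vax2*, a homeobox transcription factor gene 31390 kb away, scored 16.2 and 11.4 in Mx and 5.6 in PA2 replicate 2, and was not listed in the other 11 libraries. Mx replicate 1 alone listed *Evx1* with the bait of *Fezf1*, a zinc finger transcription factor gene, at 14.3 over 29055 kb. *Skap2* was listed with the *Vax2* bait in Mx replicate 1 (11.2) and with the *Fezf1* bait in knockout replicate 2 (8.78). No other member bait was listed with either of them.

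The comparisons were made on asinh of the score, which is near-linear for small and logarithmic for large scores, with limma over all pairs and adjustment over all of them. *Hoxa2*-expressing and *Hox*-negative libraries were compared to ask whether the neighbours' contacts differ with *Hoxa2* activity. All *Hox*-negative libraries were of E10.5, whereas the *Hoxa2*-expressing ones include E12.5 and E14.5 pinna. In this comparison *Hoxa2* activity therefore cannot be told apart from stage and tissue. No pair of a member bait passed at an adjusted p below 0.05 among 129 tested by limma with 1 mean per group. An unadjusted p below 0.05 was found for 14 of the 129, against 18621 of all 286702 pairs. With a mean for each of the 7 conditions instead of 1 per group, 6 member pairs passed, and 16187 of all pairs. That fit also holds the knockout libraries, so its tested pairs are not the same set as the 129 and 286702. The 6 are not read as a result about the members. That fit takes its error from replicates within a condition and leaves out the spread between the populations of a group. In the fit with group means, 67 of all 286702 pairs passed, which is 0.0234%, a rate at which a set of this size would hold close to 0. None of the 129 had groups that did not overlap, against 0.394% of all pairs, and the median difference was -0.01 both for them and for all pairs.

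The other 3 comparisons came from a fit with a mean for each of the 7 conditions, over 161898 pairs of which 89 belonged to a member bait. All of them used the 2 wild-type PA2 libraries, so they are not independent of each other. For PA2 against *Hox*-negative libraries at E10.5, 1 of the 89 passed, and 367 of all pairs passed, 0.227%. An unadjusted p below 0.05 by limma was found for 9 of the 89, against 12337 of all 161898 pairs. Groups did not overlap for 7 of the 89, against 5.66% of all pairs, and the median difference was 0.19 against -0.00 over all pairs. For knockout against wild-type PA2, 2 of 89 passed, where 2.16% of all pairs passed (586 higher and 2914 lower in the knockout). An unadjusted p below 0.05 by limma was found for 17 of the 89, against 27097 of all 161898 pairs. Groups did not overlap for 34 of 89, against 35.8% of all pairs, and the median difference was -0.07 against -0.09. For pinna against PA2, none of the 89 passed by limma, against 1.55% of all pairs. An unadjusted p below 0.05 was found for 8 of the 89, against 21171 of all 161898 pairs. Groups did not overlap for 9 of the 89, against 15.4% of all pairs, and the medians were -0.32 and -0.02. The counts of 1, 2 and 0 among 89 are thus too small to stand apart from these rates.

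The pair that passed most clearly was *Mir148a*–*Nfe2l3*. It was lower in PA2, where it was unlisted in both libraries, than in the *Hox*-negative libraries (5.91 ± 0.616, SD, n = 6), by limma with a difference of -2.47 (SE 0.349) and an adjusted p of 0.0256. It was higher in the knockout (8.83 ± 0.601, SD, n = 2) than in PA2, with a difference of 2.87 (SE 0.428) and an adjusted p of 0.0045 by limma. The same PA2 libraries stand in both tests. Between pinna and PA2 the adjusted p was 0.162, and between *Hoxa2*-expressing and *Hox*-negative libraries 0.435. All listed scores of this pair were below 10, and an unlisted score can be anything below 5. When each library was cut to its 119370 highest pairs, the adjusted p values became 0.787 and 0.236, without knockout replicate 1 they became 0.0987 and 0.0594, and without knockout replicate 2 they became 0.0942 and 0.0397.

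The other pair that passed was *Skap2* with the second fragment at the edge of SE1, which fell by 0.97 on the asinh scale in the knockout against PA2 (SE 0.164, adjusted p 0.0103 by limma). The mean scores were 13.3 ± 3.48 and 34.5 ± 1.14 (SD, n = 2 each). The knockout libraries listed fewer pairs than any other library, and whether this lowered the score was not tested. With 119370 pairs in each library the pair still passed, whereas with scores capped at 20 the adjusted p was 0.0548, without PA2 replicate 1 it was 0.0749, without PA2 replicate 2 0.0574 and without knockout replicate 1 0.0861. The *Evx1* bait with the same fragment gave a difference of -0.83 (SE 0.236) and an adjusted p of 0.139 by limma, and that with the first fragment -2.46 (SE 0.661) and 0.116. Over the fits that leave out 1 library, the adjusted p of the former ran from 0.0193 (without E14.5 pinna replicate 2; 0.0196 without replicate 1) to 0.443 (without knockout replicate 1). The difference with the first fragment depended on which knockout library was kept. It was -3.80 (adjusted p 0.00158 by limma) with replicate 2 alone, in which the pair was unlisted, and -1.12 (adjusted p 0.215) with replicate 1 alone, and without PA2 replicate 1 the adjusted p was 0.335. Where 1 library is left in an arm, the fit assumes that it varies like the other conditions.

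The number of listed pairs per bait, as log2 of pairs plus 1 per 100000 of the library, did not pass for any of the 7 baits in any of 3 comparisons. Among all baits, 0.954% passed between *Hoxa2*-expressing and *Hox*-negative libraries, 0.37% between knockout and PA2 and 2.06% between pinna and PA2. *Mir148a* had 4.00 ± 1.41 listed pairs in the knockout and 0.500 ± 0.707 in PA2 (SD, n = 2 each), a log2 difference of 2.08 (SE 0.688, adjusted p 0.249 by limma). It had 1.00 ± 0.632 listed pairs in *Hoxa2*-expressing and 4.33 ± 2.58 in *Hox*-negative libraries (SD, n = 6 each). The difference was -1.30 on the log2 scale (SE 0.397, adjusted p 0.113 by limma). Its *Hox*-negative values were 2 and 4 in FNP, 3 and 7 in Mx and 8 and 2 in Md, those of PA2 1 and 0, of the knockout 3 and 5, of E12.5 pinna 2 and 1, and of E14.5 pinna 1 and 1, so the groups touched at 2. *Skap2* had 22.3 ± 6.02 pairs in pinna (n = 4) and 30.5 ± 4.95 in PA2 (n = 2), a difference of -0.64 (SE 0.245, adjusted p 0.208 by limma).

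Interaction strength with a region, the mean score over its fragments, was computed for 13 regions, among them HIRE1, HIRE2, the super-enhancers, the Hoxa domain and the *Hoxa2* bait. Of 91 combinations of a member bait and a region, 24 had a listed fragment in any library, and 7 had a fragment listed in both libraries of a condition. Two-sided exact permutation tests compared 6 *Hoxa2*-expressing and 6 *Hox*-negative libraries, and can go as low as p = 0.0022 where enough libraries list a fragment. They gave no adjusted p below 0.364 over the 24, and 1 was below 0.05 before adjustment. That was *Skap2* with the *Hoxa2* bait (5.39 ± 2.83, SD, in *Hox*-negative libraries, exact permutation p = 0.0152). Each group of 6 holds 3 cell populations with 2 libraries each, which such a test treats as 6 separate samples. The groups also differ in stage and tissue, as said above. A combination listed in few libraries, such as *Nfe2l3* with HIRE2 in 1, could not reach a low p whatever its values. Its test decides nothing, though it entered the adjustment.

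*Skap2* with SE1 had a strength of 2.35 ± 0.780 in *Hoxa2*-expressing and 1.44 ± 0.624 in *Hox*-negative libraries (SD, n = 6 each, exact permutation p = 0.0584, adjusted 0.701). The knockout values were 0.703 and 0.964 against 2.33 and 2.21 in wild-type PA2. *Evx1* with SE1 had 1.36 ± 0.680 and 0.856 ± 0.251 (exact permutation p = 0.106, n = 6 each, adjusted 0.779), with 0.452 and 0 in the knockout. *Skap2* with the Hoxa domain had 2.07 ± 0.812 and 2.56 ± 0.261 (exact permutation p = 0.195, n = 6 each, adjusted 0.779). In these 3 combinations the E14.5 pinna libraries held the lowest *Hoxa2*-expressing values, 1.06 for *Skap2* with SE1, 0.591 for *Evx1* with SE1 and 0.883 for *Skap2* with the Hoxa domain, each in replicate 1.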

How the data were processed

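The deposited lists give, for each library, pairs of HindIII fragments on GRCm38 with a CHiCAGO score, which the authors computed after mapping and filtering the PCHi-C reads, and which they deposited only where it reached 5. The submitters' processing notes name bcl2fastq 2.17. Of 31607 chromosome 6 fragments in the lists, 31607 matched a HindIII digest of the reference. Read depth is not in the lists, so no counting interval can be given.

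Baits were matched to GENCODE vM21 start sites, pairs were joined over 14 libraries irrespective of column order, and unlisted pairs were set to 0. limma 3.58.1 (R 4.3.3, lmFit and eBayes with trend) was applied to asinh of the score for all pairs listed in at least 2 of the 12 wild-type libraries (*Hoxa2*-expressing against *Hox*-negative) or at least 4 of 14 (the other comparisons), with Benjamini-Hochberg adjustment over all pairs and a threshold of 0.05. Numbers of listed intrachromosomal pairs per bait were tested in the same way. Region strengths were compared by two-sided exact permutation tests (SciPy 1.17.1). The rule for named pairs took, per bait, the 3 with the highest mean score, per comparison up to 10 called pairs whose groups did not overlap with the largest difference, and the highest-scoring pair with an enhancer or the Hoxa domain that both libraries of a condition listed. Baits with a like pattern were the 2 with the highest correlation of the log2 number of pairs. Other pairs were named because they are listed in several libraries or lie in a stretch described, after their values were seen. The code was tested on simulated data. Alternatives changed the score scale, thresholds, filters, libraries and blocks. The members, lists and comparisons were chosen with earlier results of these data known.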

Additional observations from a re-analysis of the deposited data

Results flagged for a closer look

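In 5 of 36 groups of 6 libraries, 1 library stood apart from the others by more than Dixon's critical value. In all 5 the group was that of the *Hox*-negative libraries and the lowest library stood apart. For normally distributed values chance gives this in about 1 in 20 groups. Unlisted pairs were set to 0 here, so that rate need not hold and the 5 cannot be set against it. The *Skap2* bait scored 10.75 in FNP replicate 1 with the first fragment at the edge of SE1 (51173834) and 18.73 in Md replicate 1 with the second (51180767). The other 3 cases were unlisted pairs, with a value of 0, namely *Hnrnpa2b1*/*Cbx3* with the fragment at 51212856 in FNP replicate 1, *Snx10* with that at 51205165 in Mx replicate 1 and *Snx10* with that at 51212856 in Mx replicate 2.

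No pair of a member bait with another chromosome passed the filter for the tests. The member baits had 38 in Md replicate 1 and 80 in E12.5 pinna replicate 2, the libraries whose lists are named as merged, against 0 to 3 in each of the other 12. None was listed in more than 1 library.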

How the results depend on the processing

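The scores hold no depth, lists stop at 5, and each condition has 2 libraries, so pairs scored near 5 can leave or enter a list by little. For *Hoxa2*-expressing against *Hox*-negative libraries, the 67 pairs called became 114 on log2(score + 1), 3 with scores capped at 20, 35 with equal numbers of top pairs, 14 without the merged libraries, 245 with intrachromosomal pairs only, 24 for pairs listed in at least 4 libraries, 16187 with 7 condition means, and 24 to 132 without 1 library. Member pairs called stayed at 0, except for 6 with 7 condition means. For knockout against PA2, 3500 became 870 with scores below 10 set to 0, 2027 with equal numbers, 6980 without the merged libraries, 12857 for pairs in at least 2 libraries and 3397 to 4668 without 1 library. The 2 member pairs called became 1 with scores capped, scores below 10 set to 0 or equal numbers, and 1 to 4 without 1 library. For PA2 against *Hox*-negative libraries, 367 became 217 with scores below 10 set to 0, 223 without the merged libraries, 6742 for pairs in at least 2 libraries and 173 to 719 without 1 library. The 1 member pair called became 0 with scores capped, scores below 10 set to 0, equal numbers or no merged libraries, 3 for pairs in at least 2 libraries and 0 to 1 without 1 library. For pinna against PA2, 2513 became 705, 1657, 4177 and 10531 with scores below 10 set to 0, equal numbers, no merged libraries and pairs in at least 2 libraries, and 951 to 3457 without 1 library. Member pairs called went from 0 to 3 for pairs in at least 2 libraries and 0 to 3 without 1 library.

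For numbers of pairs per bait, the 211 baits called between *Hoxa2*-expressing and *Hox*-negative libraries became 102 for scores of 10 or more, 97 without scaling, 122 with summed scores, 101 without the merged libraries and 36 to 581 without 1 library. The 82 between knockout and PA2 became 40, 168 and 145 for scores of 10 or more, no scaling and summed scores, and 27 to 127 without 1 library. The 457 between pinna and PA2 became 242 for scores of 10 or more and 58 to 756 without 1 library. No member bait or region was called under any of these settings. The causes of these changes were not tested.

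Replicate numbers did not pair the samples. Deviations of same-numbered libraries correlated at 0.002071 to 0.07457 over 21 pairs of conditions, none above 0.1. With the replicate block, 88, 3311, 93 and 1985 pairs were called in the order of the comparisons above, with 0, 2, 0 and 0 of the members, and 215, 108 and 559 baits.

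*Mir148a*–*Nfe2l3* between PA2 and *Hox*-negative libraries had an adjusted p of 0.0650 with scores capped, 0.0649 with the replicate block and 0.0549 without the merged libraries. With 7 condition means, this pair and *Skap2* with the *Hoxa2* bait passed between *Hoxa2*-expressing and *Hox*-negative libraries (adjusted p 0.00036 and 0.0118 by limma). That setting leaves the spread between the populations of a group out of the error, and it called 16187 of all pairs. *Evx1* with the third fragment at the edge of SE1, in knockout against PA2 (adjusted p 0.127), passed at 0.0369 without the merged libraries. Over 28 single results and 579 comparisons with an alternative, 549 stayed on the same side of the threshold, 12 lost and 18 gained a call, and 0 changed direction. The single results were those with small unadjusted p values, and most were not called in the main fits. All 12 losses fell on the called pairs, *Mir148a*–*Nfe2l3* in both its comparisons and *Skap2* with the second fragment at the edge of SE1.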

Other observations

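Among 31 baits around the *Hoxa* cluster, the bait whose number of listed pairs varied most like that of *Npvf* over the 14 libraries was that of *Hoxa2* (Pearson's r = 0.715, Spearman's rho = 0.802). For *Skap2* it was the bait of *Gm28308*, *Hoxa3* and *Hoxa7* (r = 0.835, rho = 0.763), followed by that of *5730596B20Rik* (r = 0.816, rho = 0.824). For *Evx1* it was *Hibadh*, with r = 0.301 and rho = 0.398. These correlations are descriptions, since the baits of a library share its depth and preparation, and baits next to each other can share pairs. Each is the highest of 31 correlations or the next. The values for *Npvf* rest on 0 to 5 listed pairs per library, of which 1 of 28 was listed in both libraries of a condition.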
